A study of Mus musculus with 12 samples.

Results

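Actb, Actg1, Acta2, Cnn1, Tagln and Myl6 encode actins and proteins that work with them, and were followed here in the mouse osteoblast line 2T3 and the mouse osteocyte line MLO-Y4. The 6 genes were taken by their current symbols from 4605 named genes on a spotted array of 5030 spots. Actb was printed at 3 places and each of the others at 1, which gave 8 spots. Total RNA was measured on 12 one-colour arrays, 3 for each of 4 groups. 2T3 comes from a mouse in which the BMP-2 promoter drives the SV-40 T antigen, and was sampled as the groups C0 and low. MLO-Y4 comes from a mouse in which the osteocalcin promoter drives T antigen, and was sampled as low and high. All 4 groups therefore carry T antigen, and each cell type stands for 1 line. Per the labels, the 2T3 groups set sparse against confluent osteoblasts, and the MLO-Y4 groups set osteocytes with gap junctions against those without. C0 was read as confluent, and high as the group with gap junctions, only because the other group of each line is called low.

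Actin filaments give a cell its shape and, with myosin, its pull on the surroundings. Actb and Actg1 encode the cytoplasmic beta and gamma actins that nearly all cells make. Acta2 encodes smooth muscle alpha actin, which marks smooth muscle and contractile fibroblasts and is also made by osteoblast-lineage cells in culture. Tagln (transgelin) and Cnn1 (calponin) encode actin-binding proteins best known from smooth muscle, and Myl6 encodes the essential light chain of non-muscle and smooth muscle myosin. Many genes of this kind are driven by serum response factor (SRF), which binds a DNA sequence known as the CArG box and is held in check by free monomeric actin through its cofactor Mrtfa.

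RefSeq promoters (build GRCm38.p6) were at hand for 4 of the 6 genes, Actg1, Acta2, Cnn1 and Myl6, with 5 transcription starts between them. The sites below are shown because the genes are described together and SRF is their textbook regulator. The 250 bases before each start were searched on both strands for the CArG box, and for the same box with 1 of its central A or T letters exchanged for G or C. Capitals mark the matches, and each stretch of 90 bases is written 5′ to 3′ on the strand of the gene, which is the minus strand for all 3.
Actg1, chr11:120348536-120348625: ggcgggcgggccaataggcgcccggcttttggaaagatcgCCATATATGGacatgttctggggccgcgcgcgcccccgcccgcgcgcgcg
Acta2, chr19:34255383-34255472: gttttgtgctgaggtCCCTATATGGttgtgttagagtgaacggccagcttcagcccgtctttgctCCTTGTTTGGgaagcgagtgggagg
Myl6, chr10:128493010-128493099: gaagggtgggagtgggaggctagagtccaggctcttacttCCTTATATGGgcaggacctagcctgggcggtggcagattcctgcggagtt
Actg1 held a full CArG box that begins 90 bases before its start, and Myl6 held 1 that begins 50 bases before 1 of its 2 starts. Acta2 held 2 boxes with 1 letter exchanged, beginning 84 and 34 bases before its start. Cnn1 and the other Myl6 start held neither form in this window. Among all 32851 promoters of that table, 1.47% held a full box and 7.24% held the form with 1 letter exchanged. A match describes the sequence and does not show binding, which was not measured.

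The deposited intensities are background-subtracted and ran from -23 to 53055. The most negative reading of an array, without its sign, served as its detection limit. By that limit between 37.9% and 74.8% of spots were detected on an array. Arrays were scaled on the 1253 spots detected on all 12 arrays, and levels below are scaled intensities on the log2 scale, with a floor at 2.05. Total intensity ran from 212491 on 2T3 low replicate 3 to 1680311 on 2T3 C0 replicate 3. Over the spots detected everywhere, 2T3 low replicate 1 was closest to 2T3 C0 replicate 2 (correlation 0.83), whereas 2T3 low replicates 2 and 3 were closest to each other (0.92). 2T3 C0 replicate 3 was closest to 2T3 low replicate 3 (0.91), so 2 of the 6 2T3 arrays stood nearest to an array of the other label. In MLO-Y4 the nearest array was always that of the same number at the other density. Markers fixed for each labelled cell type were checked. Pdpn, a gene of early osteocyte processes, averaged 7.52 in 2T3 C0, 7.42 in 2T3 low, 10.25 in MLO-Y4 low and 9.91 in MLO-Y4 high, and Phex, an endopeptidase gene of osteocytes, was detected on 0 of 12 arrays. Col1a2, a collagen gene of osteoblasts, averaged 10.22 and 10.96 in 2T3 C0 and low against 8.12 and 7.71 in MLO-Y4 low and high. Alpl, the alkaline phosphatase gene of osteoblasts, went the other way, with 5.92 and 5.77 in 2T3 C0 and low against 7.88 and 7.80 in MLO-Y4 low and high. Summed over 7 measured osteoblast markers, the C0 arrays of 2T3 gave 1790 to 4169 scaled units and its low arrays 2799 to 7384, against 765 to 1658 and 594 to 3103 in MLO-Y4 low and high. Over 6 osteocyte markers they ran from 677 to 1269 and 1185 to 1309 in 2T3 C0 and low, against 5090 to 8530 and 5719 to 6759 in MLO-Y4 low and high. The brightest of these markers in each group was Dstn, an actin-binding gene, so it weighs most in the sums. It averaged 8.76 and 9.36 in 2T3 C0 and low, and 11.60 and 11.71 in MLO-Y4 low and high.

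Markers of other cells were read too. Of 7 markers of smooth muscle 3 were measured, and the defining smooth muscle myosin gene Myh11 was detected on 0 of 12 arrays, while Actg2 and Smtn were detected on all 12. Summed over these 3, the smooth muscle level ran from 713 to 1181 scaled units in 2T3 C0, 1065 to 2297 in 2T3 low, 735 to 3442 in MLO-Y4 low and 681 to 1989 in MLO-Y4 high. Of 6 macrophage markers 4 were measured, with Ptprc (CD45) on 0 of 12 arrays and Tyrobp on 7, and their sum was highest in 2T3 low, at 187 to 336 scaled units, against 49.4 to 166 in 2T3 C0, 21.3 to 44.4 in MLO-Y4 low and up to 137 in MLO-Y4 high. Of 9 striated muscle markers 6 were measured, with Ckm on 0 of 12 arrays and Myod1 on all 12. Detected on all arrays of a group were 4 of these 6 in 2T3 C0 and in 2T3 low, 1 in MLO-Y4 low and 2 in MLO-Y4 high. Their sums were 166 to 879 scaled units in 2T3 C0 and 412 to 833 in 2T3 low, and 211 to 693 and 110 to 561 in MLO-Y4 low and high. The part of these markers in the results was not tested. A level on such an array also cannot tell fewer cells that make an RNA from less of it per cell.

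**Figure D1:**
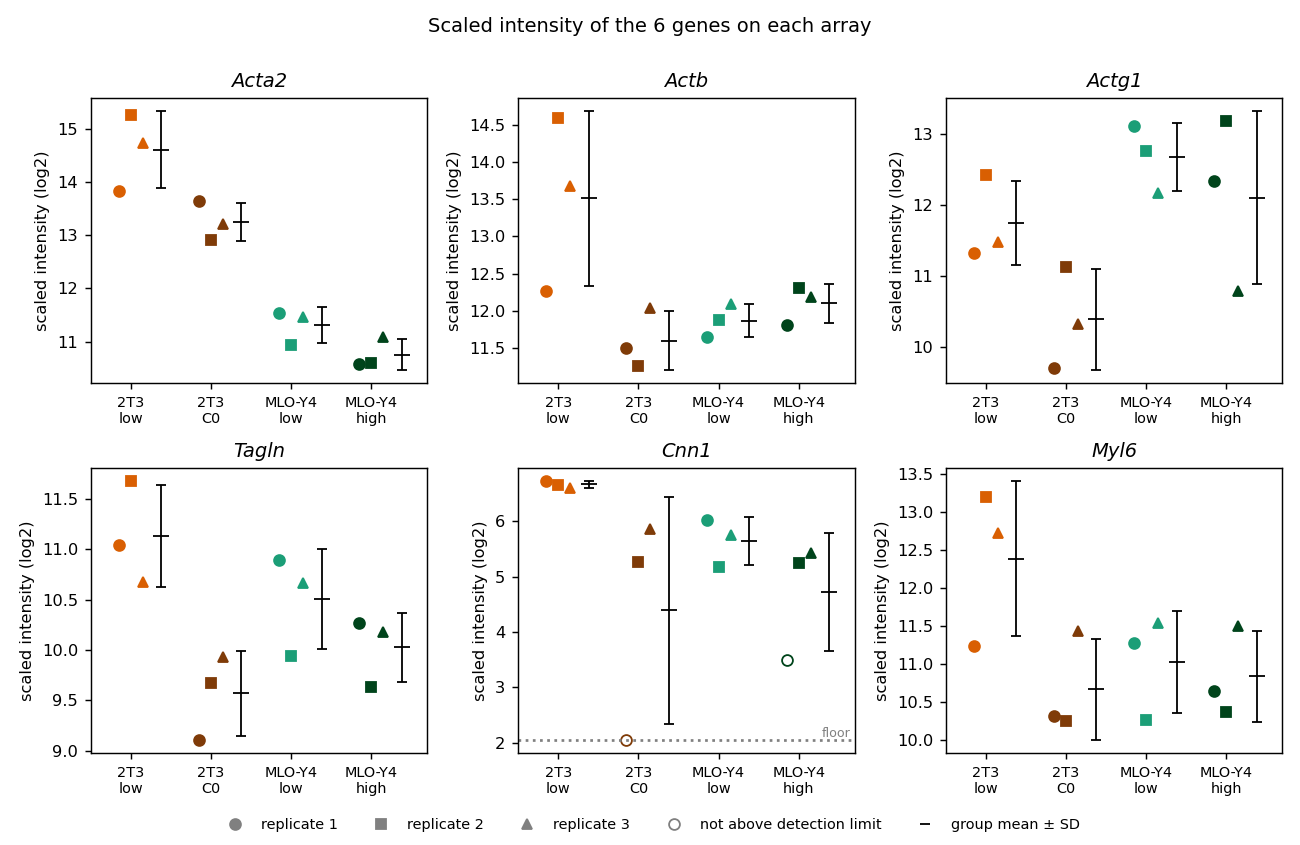
Scaled intensity (log2) of each of the 6 genes on the 12 arrays, by group; symbols give the replicate, open symbols lie at or below the array's detection limit, and black bars give the group mean and SD (n = 3). Acta2 is the gene whose 2T3 arrays (12.91 to 15.27) all lie above its MLO-Y4 arrays (10.57 to 11.54), and Cnn1 sits at the floor on 2T3 C0 replicate 1.

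Acta2, the smooth muscle alpha actin gene, was lower in the osteocyte line than in the osteoblast line at both densities, and it was the only 1 of the 6 genes that passed the test in any comparison. In 2T3 low its levels were 13.82, 15.27 and 14.73 on replicates 1 to 3, and in 2T3 C0 they were 13.63, 12.91 and 13.20. In MLO-Y4 low they were 11.54, 10.93 and 11.46, and in MLO-Y4 high 10.57, 10.60 and 11.09. Each 2T3 array was thus above each MLO-Y4 array, and within each line the mean of the group called low was the higher, with overlap in MLO-Y4. As geometric means the groups stood at 24966 scaled units in 2T3 low, 9730 in 2T3 C0, 2540 in MLO-Y4 low and 1728 in MLO-Y4 high.

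At low density Acta2 fell by 3.30 on the log2 scale from 2T3 to MLO-Y4 (SE 0.46, 9.83-fold, limma adjusted p = 0.00292, no overlap between 3 and 3 arrays). In this comparison 4.02% of 5002 features were called, 1.76% lower and 2.26% higher. Between 2T3 C0 and MLO-Y4 high it fell by 2.49 (SE 0.46, 5.63-fold, adjusted p = 0.0121), where 3.88% of features were called, 1.84% lower and 2.04% higher. Of the 6 genes it alone had no overlap there, with 11.8% of features apart downwards and 7.14% upwards. The lack of overlap fixes that MLO-Y4 high was below 2T3 C0 in 3 of 3 same-numbered pairs, and the differences lay between -3.06 and -2.11. Both calls ended when arrays were scaled to equal medians over all spots, with log2 differences of -2.35 (adjusted p = 0.0734) and -1.72 (0.222), and the call against C0 also ended without MLO-Y4 high replicate 1 (-2.40, adjusted p just over 0.05). Equal medians moved the middle of the features detected on all arrays from -0.04 to 0.90 at low density and from -0.04 to 0.73 at the denser state. At low density a separate array set for 2T3 low, which paired by number with no other group, cannot be told apart from the line.

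The spot of Acta2 was among the brightest of the array in 2T3. It ranked from 2 to 4 in 2T3 low and from 5 to 11 in 2T3 C0, against 64 to 77 in MLO-Y4 low and 90 to 125 in MLO-Y4 high. Its deposited intensity on 2T3 low replicate 2 was 49132, near the highest value of that array, 49517. Whether the scanner reached its ceiling there was not tested, and a ceiling would leave the level of that array too low. Acta2 is also 1 of a family of close relatives, and how far the actin spots share signal was not tested, because the spotted sequences were not analysed here.

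The beta actin gene Actb, often used as a reference gene, was measured by 3 spots, whose log2 levels were averaged. The averages were 12.26, 14.60 and 13.67 in 2T3 low and 11.50, 11.26 and 12.03 in 2T3 C0. They were 11.65, 11.87 and 12.08 in MLO-Y4 low and 11.81, 12.31 and 12.18 in MLO-Y4 high. The 2T3 low arrays spread over more than 2 log2 units, with replicate 1 next to the C0 arrays, while the 6 MLO-Y4 arrays lay between 11.65 and 12.31. The order of the means was 2T3 low (13.51), MLO-Y4 high (12.10), MLO-Y4 low (11.87) and 2T3 C0 (11.60), and the last 3 overlapped.

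At low density Actb differed between the lines by -1.65 (MLO-Y4 minus 2T3, SE 0.56, adjusted p = 0.149), with no overlap between the arrays. Actb, Acta2 and Cnn1 were apart downwards in this comparison and none of the 6 upwards, against 12.8% and 6.88% of all features. Without 2T3 low replicate 1 the difference was -2.27 and passed the test (limma adjusted p = 0.0145), whereas without 2T3 low replicate 2 it was -1.10, and with equal medians it was -0.70. At the denser state it was 0.50 (SE 0.56, adjusted p = 0.781), with 1.27 under equal medians and 0.20 under quantile normalization. None of these values is a call in the fit over 12 arrays.

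The Actb readings differed with place on the array. Its spot in the block of the array lettered P read 10.07 on MLO-Y4 low replicate 3 and 10.03 on MLO-Y4 high replicate 3, against 12.69 and 13.50, and 13.32 and 13.19, for its spots in blocks A and H. The other 5 control genes printed at the same 3 places, Gapdh, Hprt, Ywhaz, Rps29 and Sdf4, were also lower at P on those arrays. Their median offset, P minus the mean of A and H, was -1.64 and -1.57 there and lay between -0.07 and 0.69 on the other 10 arrays. The offset of Actb itself was larger in size, -3.02 on MLO-Y4 low replicate 3 and -3.22 on MLO-Y4 high replicate 3. How much of it comes from place was not tested. In the answer of Actb to density, the 3 spots gave -2.06 (A), -1.69 (H) and -1.99 (P) in 2T3, and 0.85, 0.09 and -0.25 in MLO-Y4.

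**Figure D2:**
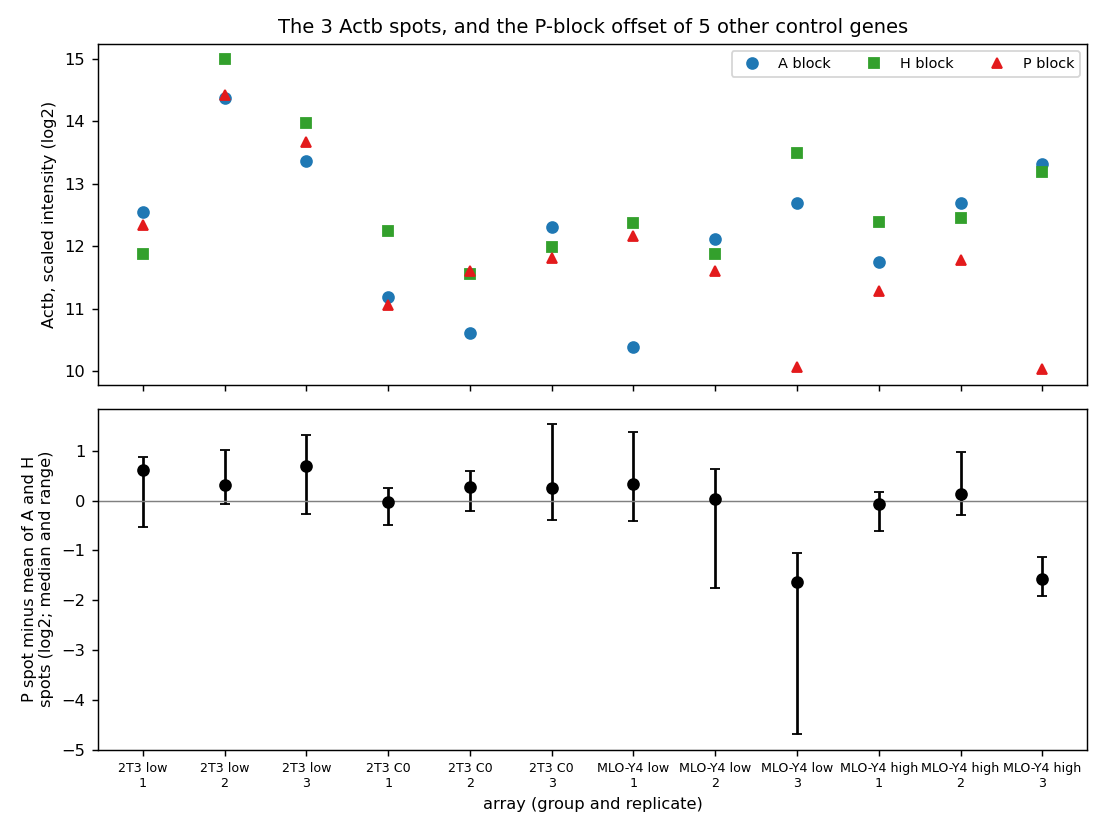
Upper panel, scaled intensity (log2) of the Actb spots in blocks A, H and P on each of the 12 arrays; lower panel, the P spot minus the mean of the A and H spots (log2) for Gapdh, Hprt, Ywhaz, Rps29 and Sdf4, with the median as a point and the lowest and highest gene as bars. The P spots are low on both MLO-Y4 arrays numbered 3, with medians of -1.64 and -1.57.

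Actg1, the gamma actin gene, was the 1 of the 3 actins with its highest mean in MLO-Y4. Its single spot lies in block P. Levels were 13.12, 12.76 and 12.17 in MLO-Y4 low and 12.34, 13.19 and 10.78 in MLO-Y4 high. They were 11.32, 12.43 and 11.48 in 2T3 low and 9.70, 11.13 and 10.32 in 2T3 C0. Replicate 3 was the lowest array in both MLO-Y4 groups, the 2 arrays on which block P was dim, and the lines overlapped at both densities. The means ran from 12.68 (MLO-Y4 low) through 12.11 (MLO-Y4 high) and 11.74 (2T3 low) to 10.38 (2T3 C0), and neighbours in the order overlapped except 2T3 low and C0.

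The difference of Actg1 between the lines did not pass the test at either density, with 0.94 at low density (SE 0.65, adjusted p = 0.533) and 1.72 between MLO-Y4 high and 2T3 C0 (SE 0.65, adjusted p = 0.215, 95% interval 0.29 to 3.16 before adjustment). With equal medians these differences were 1.89 and 2.49, and without 1 array the second ran from 1.18 to 2.39. The same-numbered arrays of MLO-Y4 high and 2T3 C0 differed by 2.64, 2.07 and 0.46. With both MLO-Y4 arrays numbered 3 left out, the adjusted p was 0.372 at low density and 0.0935 at the denser state, and with the trend across the array surface removed it was 0.308 and 0.124. Actg2, the gamma actin of smooth muscle and no member of the group, also lies in block P and had a correlation of 0.80 with Actg1 over the 12 arrays, which share that block's offsets. Against Acta2 the correlation of Actg1 was -0.43.

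Tagln and Cnn1 encode the calponin-family proteins. Tagln read 11.04, 11.68 and 10.68 in 2T3 low, 9.11, 9.67 and 9.93 in 2T3 C0, 10.90, 9.94 and 10.66 in MLO-Y4 low and 10.27, 9.63 and 10.17 in MLO-Y4 high. Each 2T3 low array was above each C0 array, the MLO-Y4 groups overlapped, and each overlapped the 2T3 group it was compared with. Between the lines Tagln differed by -0.63 at low density (SE 0.45, adjusted p = 0.544; 0.32 with equal medians) and by 0.45 at the denser state (SE 0.45, adjusted p = 0.745).

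Cnn1 was the dimmest of the group on its own spot, close to background. It read 6.73, 6.66 and 6.60 in 2T3 low, 2.05, 5.26 and 5.86 in 2T3 C0, 6.02, 5.17 and 5.74 in MLO-Y4 low, and 3.50, 5.25 and 5.43 in MLO-Y4 high. It was not detected on 2T3 C0 replicate 1, which is at the floor, or on MLO-Y4 high replicate 1, and was detected on the other 10 arrays. Its difference between the lines was -1.02 at low density (SE 0.89, adjusted p = 0.605; -0.07 with equal medians), without overlap, and 0.33 at the denser state (SE 0.89, adjusted p = 0.940). The second value turned to -0.84 without 2T3 C0 replicate 1 and to -0.11 with a higher floor, so its sign rests on readings near background.

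Myl6, the myosin light chain gene, read 11.24, 13.20 and 12.73 in 2T3 low and 10.32, 10.25 and 11.44 in 2T3 C0. In MLO-Y4 it read 11.28, 10.26 and 11.54 at low and 10.64, 10.37 and 11.51 at high density. As for Actb, 2T3 low replicates 2 and 3 were well above all other arrays and replicate 1 was not. Between the lines Myl6 differed by -1.36 at low density (SE 0.62, adjusted p = 0.302, and -0.42 with equal medians). At the denser state it differed by 0.17 (SE 0.62, adjusted p = 0.964, and -0.064 with quantile normalization).

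**Figure D3:**
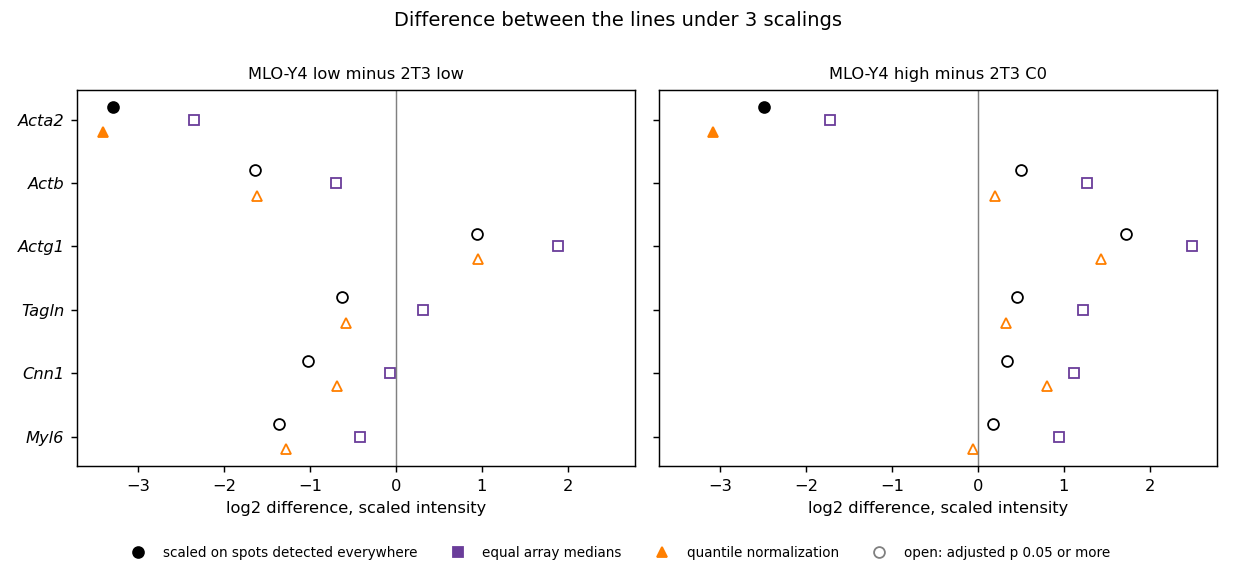
Difference between the lines (MLO-Y4 minus 2T3, log2 scaled intensity) for each gene at low density (left) and at the denser state (right), under 3 scalings of the arrays; filled symbols passed limma adjusted p 0.05. Acta2 lies lowest under each scaling, and it is filled under 2 of the 3.

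The answer to density was asked in each line. In 2T3 the mean of each of the 6 genes was lower in C0 than in low, by log2 differences from -2.27 to -1.36, yet 0 of 6 passed the test, and 0% of the 5002 features did (215 had an unadjusted p under 0.05, the 6 genes among them in 5 cases). The differences, C0 minus low, were -1.36 for Acta2 (SE 0.46), -1.91 for Actb (SE 0.56), -1.36 for Actg1 (SE 0.65), -1.56 for Tagln (SE 0.45), -2.27 for Cnn1 (SE 0.89) and -1.72 for Myl6 (SE 0.62), each at limma adjusted p = 0.979. Of the 6 genes 5 had no overlap between the 3 arrays of C0 and the 3 of low, the exception being Myl6, and 4.28% of all features were apart in this direction and 3.98% in the other. The median of the 6 was -1.64, and that of all features -0.13. The 2T3 low arrays did not deviate together with the same-numbered arrays of any other group. A separate array set therefore cannot be told apart from density in these differences.

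These differences leaned on single arrays without turning. Without 2T3 low replicate 2, the array of its group with the highest Acta2, Actb, Actg1, Tagln and Myl6, they ran from -2.27 (Cnn1) to -1.02 (Actg1). Without 2T3 low replicate 1, Actb was at -2.54 and Acta2 at -1.75, both at adjusted p = 0.258. Without 2T3 C0 replicate 1, where it was at the floor, Cnn1 was at -1.10. All 6 stayed below 0 in each alternative listed in the closing section, and none passed the threshold in any.

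In MLO-Y4 the differences of high minus low were closer to 0, from -0.92 to 0.23, and 0 of 6 genes and 0% of the 5002 features passed (78 features had an unadjusted p under 0.05, 0 of the 6 genes among them). They were -0.56 for Acta2 (95% interval -1.57 to 0.45), 0.23 for Actb (-0.99 to 1.46), -0.58 for Actg1 (-2.02 to 0.86), -0.48 for Tagln (-1.47 to 0.52), -0.92 for Cnn1 (-2.87 to 1.04) and -0.19 for Myl6 (-1.56 to 1.18). All 6 intervals include 0, and none of the genes had groups free of overlap, as 2.22% of features had upwards and 2.16% downwards. Arrays of the same number deviate together in this line, so the genes were also read within the 3 numbers. How many of all features kept 1 sign over the 3 was not counted, so a constant sign is only described. Acta2 was lower in high each time, by -0.97, -0.33 and -0.37, as was Tagln, by -0.63, -0.31 and -0.49. The average of the Actb spots was higher each time, by 0.16, 0.44 and 0.10, and Actg1, Cnn1 and Myl6 were mixed. The single Actb spots did not share 1 sign, with group differences of 0.85 (A), 0.09 (H) and -0.25 (P).

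**Figure D4:**
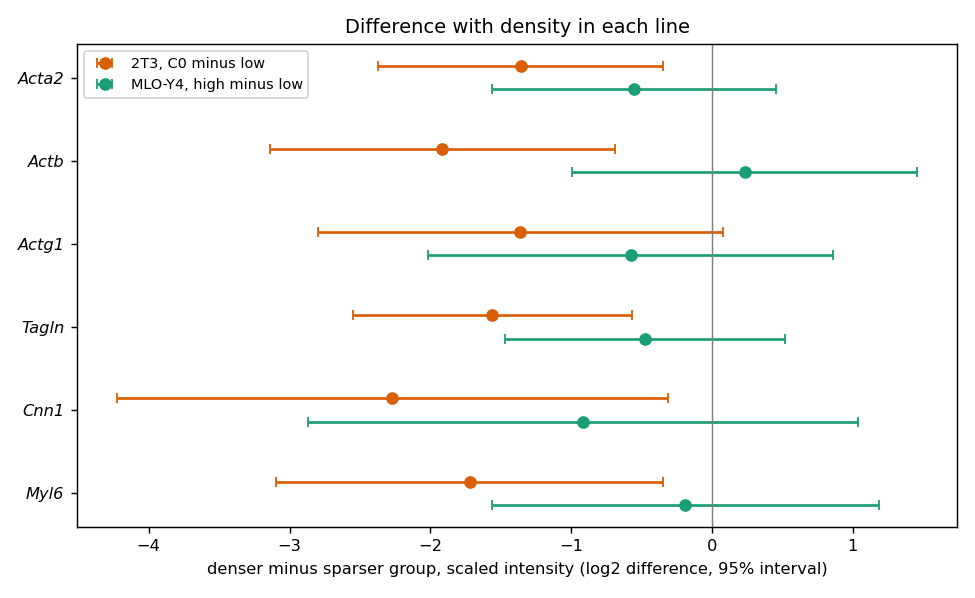
Difference of the denser minus the sparser group (log2 scaled intensity) for each gene in 2T3 (orange) and MLO-Y4 (green), with the 95% interval of the limma fit before adjustment (3 arrays a group). The 2T3 points run from -2.27 to -1.36 and the MLO-Y4 points from -0.92 to 0.23; none passed the adjusted threshold.

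Whether the lines answered differently was tested as the difference between the 2 density effects, MLO-Y4 minus 2T3. It was above 0 for all 6 genes and passed for 0 of 6, as for 0% of the 5002 features (106 had an unadjusted p under 0.05). Actb had the largest of the 6, 2.15 (SE 0.79, 95% interval 0.41 to 3.88 before adjustment), followed by Myl6 at 1.53 (SE 0.88), Cnn1 at 1.35 (SE 1.25), Tagln at 1.08 (SE 0.64), Acta2 at 0.80 (SE 0.65) and Actg1 at 0.78 (SE 0.92). Each had adjusted p = 0.999 in limma. These values moved with single arrays and the scaling: without 2T3 C0 replicate 1 Cnn1 was at 0.18, without MLO-Y4 high replicate 2 Actg1 was at 0.24 and without MLO-Y4 high replicate 3 at 1.45, and with quantile normalization Acta2 was at 0.33. A difference in the answer of the lines was therefore not shown for any of the genes. 2T3 low also enters this difference, so a separate array set for that group cannot be told apart from it.

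Other genes linked to actin, myosin or SRF, listed by role, were read in the same fit. Of these lists 5 of 18 genes of the actin and light chain family, 7 of 20 myosin heavy chains, and 13 of 34 stress fibre and calponin-family genes were measured. Of a broader list around SRF, 21 of 27 genes were measured. That list also holds Tead genes, Yap1 and the Tgfb genes, so it is not a list of SRF targets. None of them passed in either density comparison. Neither Srf itself nor Mrtfa was among the 21 measured genes of the SRF list, so their own answer to density was not read. In 2T3 the medians of C0 minus low were -0.13, -0.39, -0.19 and -0.05 in that order, beside -0.13 for all features and for the 5 control genes. In MLO-Y4 the medians of high minus low were 0.17, -0.52, -0.18 and -0.20, beside 0 for all features and 0.27 for the control genes. Only 2 of the 7 myosin heavy chains were detected on all arrays of any group.

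Single genes of the lists spread to both sides in 2T3. Cnn2, the relative of Cnn1 found in non-muscle cells, was at -1.14 in 2T3 (SE 0.58), and Ccn1 and Ccn2, matricellular genes that answer to SRF and to Yap1, were at -1.88 (SE 0.53) and -1.80 (SE 0.57), at adjusted p from 0.952 to 0.979. Ccn1 averaged 10.28 in 2T3 low and 8.39 in C0. On the other side stood Actr1a, an actin-related gene of the dynactin complex, at 1.97 (SE 0.96) and Actn3 at 1.33 (SE 0.64), both at adjusted p = 0.979. Actn3 averaged 3.69 in 2T3 low and was detected on 2 of its 3 arrays, so the size of its difference rests on readings near background. These 5 genes were picked after their values were seen. Smtn (smoothelin), at 0.13 in 2T3 (SE 0.51), was also picked in that way.

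**Figure D5:**
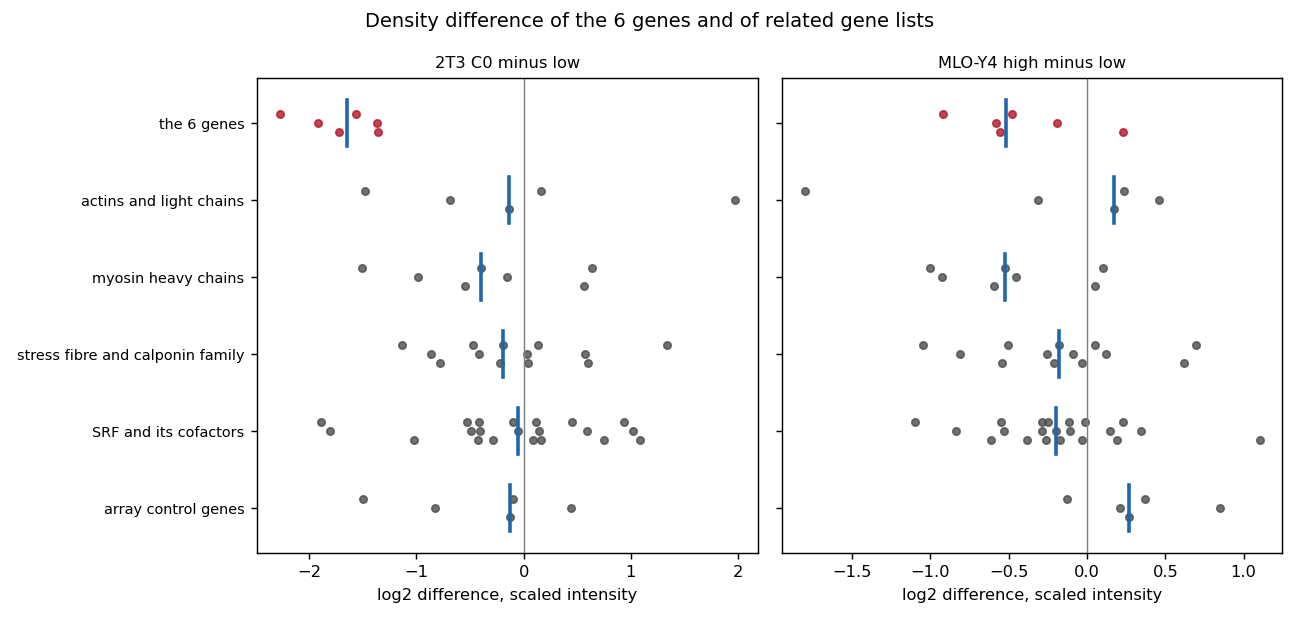
Difference of the denser minus the sparser group (log2 scaled intensity) in 2T3 (left) and MLO-Y4 (right) for the 6 genes (red) and for the measured genes of 5 lists (grey points, 1 per gene), with each median as a blue bar. In 2T3 the 6 genes lie at or below -1.36 with a median of -1.64, while the list medians lie between -0.39 and -0.05.

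Between the lines, at low density 2 of 21 genes of the SRF list were higher in MLO-Y4 and 0 lower, beside 2.26% and 1.76% of all features, and no gene of the other 3 role lists was called. The 2 were Thbs1, a matrix glycoprotein gene (3.41, SE 0.66, adjusted p = 0.0167), and Tgfb1, the growth factor gene best known for inducing Acta2 (2.44, SE 0.60, adjusted p = 0.0470). At the denser state, where 2.04% of all features were called higher and 1.84% lower, the same 2 were higher, Thbs1 at 3.13 and Tgfb1 at 2.47, and Fhl1, a LIM-domain gene of muscle, fell by 4.87 (SE 0.99, adjusted p = 0.0214). Fhl1 was detected on 1 of 3 MLO-Y4 high arrays, so the size of its fall rests on background. Of the stress fibre list, Zyx, the focal adhesion gene of zyxin, rose by 2.68 from 2T3 C0 to MLO-Y4 high (SE 0.65, adjusted p = 0.0461), and Actn3, a sarcomeric actinin gene, was at least 2.78-fold lower (adjusted p = 0.0283), detected on 0 of 3 MLO-Y4 high arrays. Of the 5 control genes, Gapdh was higher in MLO-Y4 high, by 1.66 (adjusted p = 0.0471).

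By Pearson correlation over the 12 arrays, the named genes outside the 6 most like Acta2 were Bex3 (0.95), Ankrd1 (0.94) and Tubb5 (0.92), among 2157 genes detected on at least 9 arrays. For Actb they were Serf2 (0.85), Psma3 (0.83) and Rps3 (0.82), and for Myl6 Psma3 (0.94), Tuba1a (0.91) and Atp5b (0.90). Tagln was nearest to Mif (0.87), Rps3 (0.85) and Serf2 (0.83), Actg1 to Ccng1 (0.92), Got1 (0.85) and Epha2 (0.85), and Cnn1 to Snai3 (0.90), Polr2j (0.89) and Lama1 (0.86). The 12 points share groups, array scale and place effects, so these values describe likeness on these arrays and carry no test. Among the 6, Actb and Myl6 had the highest correlation (0.88), then Tagln with Myl6 (0.79) and Cnn1 with Tagln (0.73), while Actg1 with Myl6 stood at 0.04.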

How the data were processed

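The authors deposited linear spot intensities, whole numbers with some below 0, so they are background-subtracted. Image software and background method: not given in the sources used here. Spots were named through a platform table (4633 of 5030 with 1 symbol, 5 with several, 392 with none), and 4624 of those with 1 symbol were matched by Entrez identifier to the current RefSeq gene table. Because only 24.9% of spots passed the detection limit on all 12 arrays, arrays were scaled to equal medians over those 1253 spots, floored at the 25th percentile (4.15 scaled units) and log2 was taken. Log2 values of a gene's spots were averaged, which left 5002 features.

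limma 3.58.1 in R 4.3.3 fitted 4 group means over 12 arrays (8 residual degrees of freedom) and gave two-sided moderated tests, with Benjamini-Hochberg adjustment over all features and a threshold of 0.05. The number of arrays limits the precision, and nothing says that a group's arrays came from separate cultures, so p-values measure only the spread between arrays.

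Named genes were the 6, of each list up to 4 members past the threshold with the smallest p in each comparison, and the 3 genes most correlated with each of the 6. Other names were added after their values were seen, as the text says of Cnn2, Ccn1, Ccn2, Actr1a, Actn3 and Smtn in 2T3; markers come from lists. 1 of the gene lists is not reported here. The genes, lists and scaling were chosen with earlier results of these data known. Same-numbered arrays deviated together in MLO-Y4 low and high (0.75, 0.61 and 0.71). They also did so in 2T3 C0 with MLO-Y4 high (0.65, 0.45 and 0.48) and with MLO-Y4 low (0.64, 0.43 and 0.54). Numbers were thus taken to pair these groups, from the data and not the labels. 2T3 low shared only a number with 2T3 C0 (0.03, 0.08 and 0.21), MLO-Y4 low (0.002, -0.13 and 0.21) and MLO-Y4 high (0.05, -0.004 and 0.18). Whether its arrays were handled apart from the others is not given. A separate array set cannot be told apart from density or line in any comparison that uses 2T3 low.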

Additional observations from a re-analysis of the deposited data

How the results depend on the processing

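The alternatives were equal array medians, quantile normalization, a floor at the 40th percentile, a filter on dim features, spots tested singly, the replicate block over all groups or within a line, a fit of only the arrays compared, and leaving out each array in turn. Added after the data were seen were removal of the surface trend, leaving out both MLO-Y4 arrays numbered 3, and a block over the 3 groups whose numbers pair. No gene of the 6 was called in a density comparison, or in their difference, under any of these. The replicate block changed no call of the 6 (Acta2 adjusted p = 0.00667 at low density and 0.0203 at the denser state), but the added block over 3 groups raised the calls between MLO-Y4 high and 2T3 C0 from 194 to 330 of 5002. With equal medians 0 of the 6 were called at either density between the lines, where 1 was called otherwise; without 1 array the count ran from 1 to 2 at low density and from 0 to 1 at the denser state. Tagln turned to 0.32 at low density with equal medians, which also put Tagln at 1.22, Cnn1 at 1.12 and Myl6 at 0.94 at the denser state. Between MLO-Y4 high and 2T3 C0, Myl6 turned to -0.064 with quantile normalization and to -0.16 without both arrays numbered 3, and Cnn1 to -0.11 with the higher floor and to -0.018 without those arrays. Without 1 array, Myl6 ran there from -0.16 to 0.56 and Cnn1 from -0.84 to 1.07, and in MLO-Y4 high minus low Myl6 ran from -0.57 to 0.067 and Actg1 from -1.12 to 0.085. The cause of these turns was not tested. The higher floor called 5 features with density in 2T3 and 2 in the difference of the density effects, against 0 and 0. The fit of only the arrays compared called 82 features at low density against 201, and leaving out both arrays numbered 3 called 110 and 92 between the lines against 201 and 194. Without 1 array the fewest calls were 94 at low density and 106 at the denser state. Calls that were higher in MLO-Y4 were 56.2% at low density, 86.1% with equal medians and 72.7% with quantile normalization, and 52.6%, 83.5% and 68.6% at the denser state.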
